A study of Homo sapiens with 9 samples.

Results

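SiREV1#1 was compared with the Scramble control in A549, an established line of human lung adenocarcinoma cells, to describe which genes and functions moved at the mRNA level after knockdown of REV1. The comparison rests on 6 of the 9 libraries of the series, 3 labelled Scramble and 3 labelled SiREV1#1, and the other libraries are labelled SiREV1#2, a siRNA against another stretch of REV1. Every culture, the controls included, was of one unmodified cell line and had been transfected with a siRNA by Lipofectamine RNAiMAX for 48 h before poly(A) RNA was sequenced, so no untransfected cells stand beside them. Of the 18143 genes in the deposited tables, 14205 had enough reads to be tested.

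REV1 is a deoxycytidyl transferase and a scaffold of translesion synthesis, the pathway in which specialised DNA polymerases copy past lesions that stop the replicative enzymes. RAD18 with a ubiquitin-conjugating partner marks PCNA at the stalled fork, polymerases of the Y family insert a base opposite the lesion, and the polymerase built on REV3L, MAD2L2 and POLD3 extends from it. A siRNA is loaded into an Argonaute protein, whose guide strand directs cleavage of an mRNA it matches in full. As in microRNAs, the bases near the 5′ end of a guide can also pair with short matches in the 3′ untranslated region (3′ UTR) of other mRNAs.

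The bases of REV1 that the SiREV1#1 sense strand copies lie in the coding part of exon 18 of 23, at chr2:99404474-99404492 on the minus strand of GRCh38, and are shown with the 7 bases that pair with bases 2 to 8 of the guide strand in capitals, because the same 7 bases are counted in other genes further on. The other lines show the same word in the 3′ UTR of 7 of the genes with the largest falls, all read from GENCODE 29 transcripts on GRCh38 on the sense strand. They are MAPKAPK2 at chr1:206732754-206732782 and chr1:206734078-206734106 (plus strand), HNRNPA3 at chr2:177219732-177219760 (plus strand), ZNF770 at chr15:34980324-34980352 (minus strand), VBP1 at chrX:155239556-155239584 (plus strand), PMAIP1 at chr18:59903949-59903977 (plus strand), RASSF3 at chr12:64695388-64695416 (plus strand) and METTL9 at chr16:21656911-21656939 (plus strand).
REV1, coding sequence: gaacagtgacgCAGGAATa
MAPKAPK2, first word: ataactctctaCAGGAATatattttttaa
MAPKAPK2, second word: gggagaggtggCAGGAATacttcaccttt
HNRNPA3, first word: ggtagtggtacCAGGAATaaaaaattaag
ZNF770, first word: tgtttacttacCAGGAATattttctaagt
VBP1: agcatcttgaaCAGGAATattaagataaa
PMAIP1: ttttatttcagCAGGAATaattttattta
RASSF3: atcgaaaggcaCAGGAATctaggaactct
METTL9: tgatttttttcCAGGAATtcaagtaagtg

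The Scramble libraries held 18382314 to 20035170 estimated counts and the SiREV1#1 libraries 13059082 (replicate 1) to 19865339. Replicate 1 of each group stood apart from replicates 2 and 3 at many genes, as IL6 or GPX2 show further on, so the replicate number was kept as a block and the 3 same-numbered pairs are given throughout. Of 12 genes known from A549 cells, all were above 1 FPKM in at least 1 of the 6 libraries, with a summed level of 11819 to 21503 FPKM (fragments scaled to transcript length and library size), and NQO1 was the member that changed. KRT19 (0.10 to 1.34 FPKM), EPCAM (0.73 to 2.01 FPKM) and SFTPB (0.30 to 2.84 FPKM) were low. Of 9 markers of blood, vessel, muscle and glial cells, 7 were below 1 FPKM in every library. CD68 was at 18.3 to 81.6 FPKM and CD14 at 0.20 to 5.89 FPKM, and the summed level of all 9 was 19.1 to 45.9 FPKM in Scramble and 19.4 to 88.6 FPKM after SiREV1#1, highest in replicate 1. In bulk RNA, fewer cells of a type and less RNA per cell cannot be told apart.

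Of the genes tested, 1744 (12.3%) passed an adjusted p of 0.05 in edgeR's quasi-likelihood test. Of these, 756 rose (5.32%) and 988 fell (6.96%). The median log2 fold change was 0.79 among the genes that rose (quartiles 0.61 to 1.10) and -0.84 among those that fell (quartiles -1.14 to -0.67), while over all genes tested it was 0.00. Above a 2-fold change stood 240 rises (1.69%) and 357 falls (2.51%), and above a 4-fold change 23 rises and 39 falls. Among the risen genes 753 were higher in each of the 3 pairs, and among the fallen genes 982 were lower in each. Over all genes tested, 26.3% were higher and 27.5% lower in each of the 3 pairs. The test was blocked on these pairs, so the agreement among called genes follows largely from the selection. Values of the groups did not overlap for 427 of the risen and 673 of the fallen genes. Over all genes tested, 8.72% were higher in every SiREV1#1 library than in any Scramble library and 10.4% were lower. The counts rest on the replicate block, without which 42 genes passed (5 rose and 37 fell), and on single libraries, since 323 passed without Scramble replicate 2 (99 rose and 224 fell), 327 without Scramble replicate 3, 333 without SiREV1#1 replicate 3, 400 without Scramble replicate 1, 971 without SiREV1#1 replicate 2 and 3432 without SiREV1#1 replicate 1. On FPKM values the split was 730 rises against 1471 falls.

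REV1 itself was at 32.3, 34.8 and 37.5 CPM in Scramble and 13.4, 14.1 and 16.1 CPM after SiREV1#1 (CPM, read counts scaled to a common library size, given for replicates 1, 2 and 3 in that order here and below). Its log2 fold change was -1.26 ± 0.13 (SE, adjusted p = 0.00165), and 37.7% of the control level was left in FPKM. The SiREV1#1 libraries were all below the Scramble libraries, and REV1 passed in every alternative processing that was tried. An exact two-sided permutation test of its FPKM gave p = 0.1, the smallest that 3 against 3 libraries can give. The strand of the reads is not given in the sources used here, and exons of EIF5B overlap REV1 on the opposite strand.

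**Figure D1:**
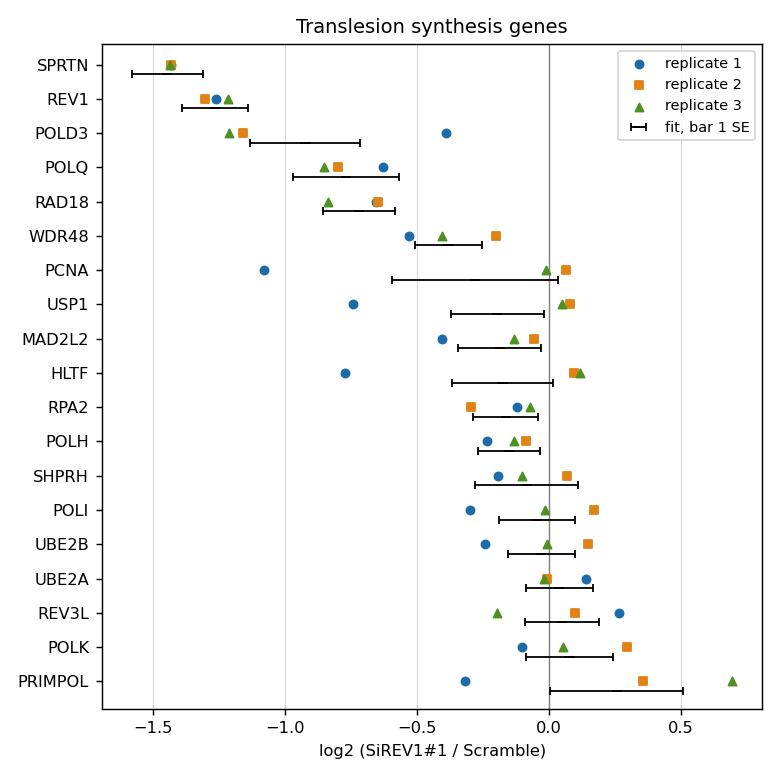
Log2 ratio of SiREV1#1 to Scramble CPM in each same-numbered pair (points) for the 19 tested genes of translesion synthesis, with the fitted log2 fold change and a bar of 1 SE below them. The 3 points of SPRTN and REV1 sit close together between -1.5 and -1, POLD3 is drawn apart by replicate 1, and most other genes have points on both sides of 0.

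Of 20 listed genes of translesion synthesis 19 were tested, and 5 fell, REV1, SPRTN, RAD18, POLD3 and POLQ, and 0 rose, with a median log2 fold change of -0.17. REV1 is the target of the siRNA, and with it 26.3% of the list fell, beside 6.96% of all genes tested. SPRTN, a protease that removes proteins crosslinked to DNA and binds ubiquitinated PCNA, went from 15.6, 39 and 41 CPM to 5.7, 14.4 and 15.1 CPM, a log2 fold change of -1.45 ± 0.13 (SE, adjusted p = 0.00133). RAD18, the ubiquitin ligase of PCNA, went from 27.8, 41.9 and 45.3 CPM to 17.6, 26.7 and 25.4 CPM (-0.72 ± 0.14, adjusted p = 0.0162). For both genes every SiREV1#1 library lay below every Scramble library. POLD3, a subunit shared by the replicative and the extending polymerase, went from 22.2, 38 and 40.4 CPM to 16.9, 17 and 17.4 CPM (-0.92 ± 0.21, adjusted p = 0.0284). POLQ, the polymerase of end joining by short homology, went from 17.6, 17.5 and 22.3 CPM to 11.3, 10.0 and 12.3 CPM (-0.77 ± 0.20, adjusted p = 0.0468). Leaving out Scramble replicate 1, 2 or 3 or SiREV1#1 replicate 2 or 3 ended the calls of RAD18, POLD3 and POLQ (adjusted p up to 0.236) and left 2 genes of the list that passed, REV1 and SPRTN. The 3′ UTRs of SPRTN and POLD3 hold the 7 bases shown in capitals above, as does that of SHPRH, which did not pass, and those of RAD18 and POLQ do not. After SiREV1#2 SPRTN was at 0.05, POLD3 at 0.23, RAD18 at -0.43 and POLQ at 0.00 against Scramble, none past the threshold. A part of these bases in the falls was not tested. The inserting polymerases POLH, POLI and POLK did not pass. POLH was at 31.5, 39.9 and 39.8 CPM in Scramble and 26.8, 37.5 and 36.3 CPM after SiREV1#1 (-0.15 ± 0.12), POLI had a log2 fold change of -0.04 ± 0.14 and POLK of 0.08 ± 0.16, and the values of the groups overlapped for all 3. REV3L (0.05 ± 0.14) and MAD2L2 (-0.18 ± 0.16), which with POLD3 extend from the inserted base, overlapped as well. PCNA was at 398, 196 and 193 CPM in Scramble and 188, 205 and 192 CPM after SiREV1#1 and did not pass (adjusted p = 0.611).

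The largest falls and rises were taken among called genes with a mean of at least 5 CPM, all 3 pairs in one direction and no overlap of the groups, so their lack of overlap comes from this choice, and genes of lower level or with overlapping groups, such as IL6, moved further. The 15 largest falls of this kind were of genes with various roles. G3BP1, which nucleates stress granules, went from 156, 93.1 and 95.7 CPM to 20.1, 12.5 and 13.8 CPM (-2.88 ± 0.13). MMGT1, a subunit of the endoplasmic reticulum membrane complex, went from 50.7, 64 and 65.7 CPM to 7.24, 9.01 and 8.6 CPM (-2.86 ± 0.14). ZNF770, a zinc finger protein, went from 69.5, 116 and 123 CPM to 15.7, 12.6 and 12.3 CPM (-2.88 ± 0.30). By the fitted change 13.6%, 13.8% and 13.6% of the control level was left, and the pairs were close for G3BP1 and MMGT1, while replicate 1 of ZNF770 fell less than the others. ACVR1, a type I receptor for bone morphogenetic proteins and activins, went from 33, 57.1 and 57.4 CPM to 8.0, 7.1 and 6.99 CPM (-2.71 ± 0.22). MAPKAPK2, a kinase that p38 activates, went from 91.2, 112 and 109 CPM to 15.1, 19.9 and 19.7 CPM (-2.51 ± 0.16). HNRNPA3, an RNA-binding protein, was the most abundant of the 15 and went from 499, 459 and 494 CPM to 88.5, 88.3 and 96.3 CPM (-2.41 ± 0.13).

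PMAIP1, an apoptotic BH3-only protein also called NOXA, was among these falls and went from 8.65, 44.3 and 47.1 CPM to 2.64, 7.5 and 7.1 CPM (-2.43 ± 0.20), and its level was several-fold lower in replicate 1 of either group than in the others. Other genes among them were EI24 (-2.57 ± 0.12), an endoplasmic reticulum protein induced by p53, VBP1 (-2.48 ± 0.16), a subunit of the prefoldin chaperone, SLC25A30 (-2.41 ± 0.15), a mitochondrial carrier, TSFM (-2.38 ± 0.20), a mitochondrial elongation factor, METTL9 (-2.37 ± 0.13), a histidine methyltransferase, and RASSF3 (-2.36 ± 0.16), a member of the RAS association family. TIGIT, an inhibitory receptor known from T cells and natural killer cells, had the largest fall of the 15 at 17, 30.5 and 52.3 CPM in Scramble and 2.64, 0.35 and 16 CPM after SiREV1#1 (-2.96 ± 0.70), with the widest spread of the 15, and its call was lost without Scramble replicate 1 or 2 (adjusted p up to 0.167). In FPKM TIGIT was at 0.81, 1.43 and 2.46 in Scramble and 0.11, 0.02 and 0.74 after SiREV1#1. These levels are low beside its CPM, and which transcript its reads come from was not tested. The adjusted p of the 15 ran from 0.000155 to 0.0325, and the other 14 kept their calls with each of the 6 libraries left out. Of these genes 8 have exons opposite another gene's exons. HNRNPA3 and TSFM share 16.5% and 18.3% of their 50-base stretches with other annotated genes, so their counts are uncertain to that extent.

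**Figure D2:**
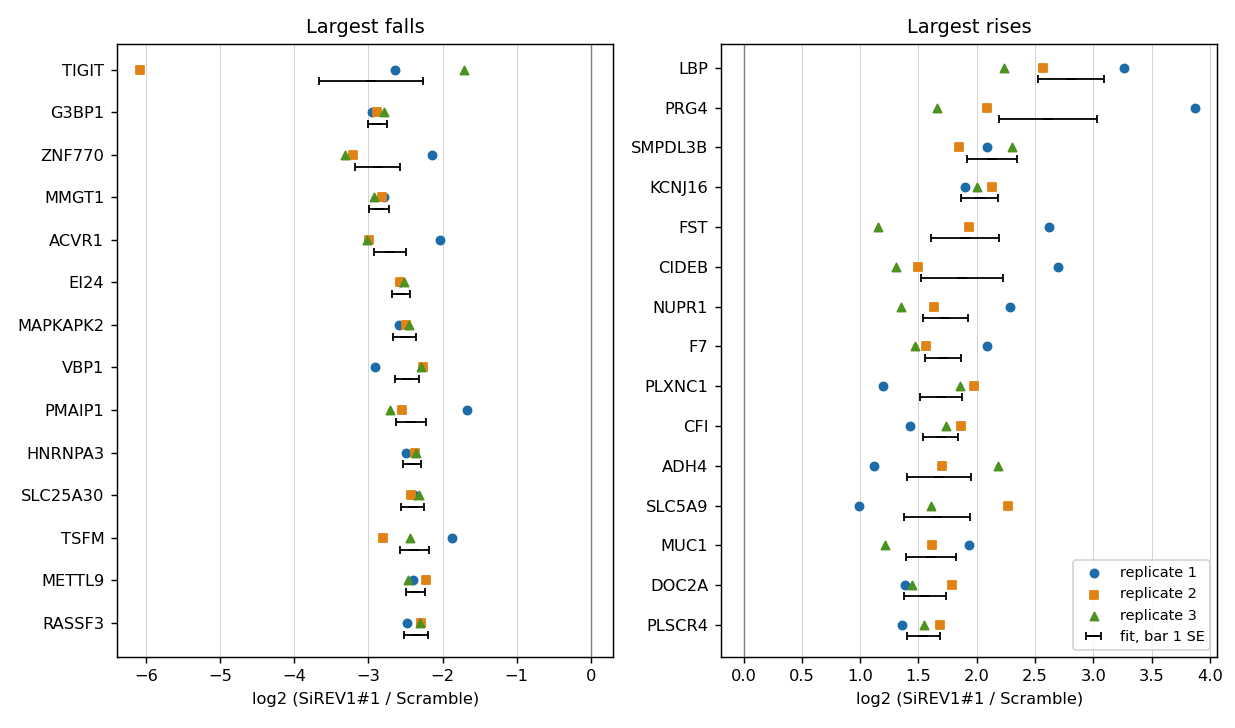
Log2 ratio of SiREV1#1 to Scramble CPM in each same-numbered pair (points) for 14 of the 15 largest falls and for the 15 largest rises, with the fitted log2 fold change and a bar of 1 SE. Genes were chosen for having all 3 points on one side of 0, and the points spread most for TIGIT and PRG4.

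Among the 15 largest rises were 4 genes of secreted proteins, LBP, PRG4, F7 and CFI. LBP, which binds bacterial lipopolysaccharide, went from 2.27, 1.12 and 1.27 CPM to 22.6, 7.15 and 6.34 CPM (2.81 ± 0.28). PRG4, the joint lubricant lubricin, went from 10.1, 5.23 and 8.49 CPM to 149, 22.6 and 27 CPM (2.61 ± 0.42) and was highest by far in replicate 1. F7, coagulation factor VII, went from 16.7, 14.6 and 16 CPM to 71.1, 43.4 and 44.6 CPM (1.71 ± 0.15). CFI, the protease that inactivates complement C3b and C4b, went from 19.9, 9.09 and 10.6 CPM to 53.8, 33.4 and 35.7 CPM (1.69 ± 0.15), with 30.9% of its 50-base stretches shared with other annotated genes.

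Of the other rises, KCNJ16, an inwardly rectifying potassium channel, went from 9.49, 10.7 and 12.9 CPM to 35.8, 47.3 and 51.9 CPM (2.03 ± 0.16). PLXNC1, a semaphorin receptor, went from 23.3, 14.2 and 16.8 CPM to 53.6, 56.2 and 61.1 CPM (1.69 ± 0.18). NUPR1, a stress-induced regulator of transcription, went from 9.02, 37.1 and 43.2 CPM to 44.4, 115 and 110.1 CPM (1.73 ± 0.20). NUPR1 was lower in replicate 1 of both groups. SMPDL3B (2.13 ± 0.22), a membrane-anchored phosphodiesterase, DOC2A (1.56 ± 0.18), a calcium sensor of exocytosis, and PLSCR4 (1.54 ± 0.14), a phospholipid scramblase, also rose, as did FST (1.90 ± 0.29), which binds activins, CIDEB (1.87 ± 0.36), a protein of lipid droplets, ADH4 (1.68 ± 0.27), an alcohol dehydrogenase, SLC5A9 (1.66 ± 0.28), a sodium-coupled sugar carrier, and MUC1 (1.61 ± 0.22), a membrane mucin. The adjusted p of the 15 ran from 0.00102 to 0.0155. As among the falls, some of these rises, 7 of the 15, have exons opposite another gene's exons, PRG4 and CIDEB among them. Without Scramble replicate 1 the calls of PRG4, FST, CIDEB, ADH4, SLC5A9 and MUC1 were lost and 9 passed, and without Scramble replicate 2 10 passed, with adjusted p up to 0.131 over these genes. ADH4 was also lost without Scramble replicate 3 or SiREV1#1 replicate 3.

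More genes fell in the mitosis list than in any other list of at least 24 tested genes, as a share. All 40 listed genes of mitosis and G2/M were tested, and 22 fell and 0 rose (55.0%, against 6.96% of all genes tested), with a median log2 fold change of -0.63. Each of the 40 had a value below 0, and 27 were lower in every SiREV1#1 library than in any Scramble library, as were 10.4% of all genes tested. CDK1, the kinase that drives entry into mitosis, went from 107, 154 and 168 CPM to 31.1, 57.1 and 58.1 CPM (-1.58 ± 0.13, adjusted p = 0.00108). CDCA8, the borealin subunit of the chromosomal passenger complex, went from 27.5, 61.6 and 66.8 CPM to 12.8, 26.5 and 27.1 CPM (-1.21 ± 0.12, adjusted p = 0.00194). KIF4A, a chromosome-bound kinesin, went from 56.2, 77.1 and 83.2 CPM to 30.5, 33.4 and 32.8 CPM (-1.14 ± 0.16), and AURKA, the spindle kinase, went from 113, 147 and 162 CPM to 65.8, 79.2 and 79 CPM (-0.90 ± 0.12). CDK1, KIF4A and AURKA did not overlap between the groups, and CDCA8 did not either, though its replicate 1 in Scramble stood close to the SiREV1#1 libraries. The size of the shift was steadier than the count of calls. With each of the 6 libraries left out in turn the median stayed between -0.69 and -0.57, whereas the number that fell was 2 without Scramble replicate 3 or SiREV1#1 replicate 3, 3 without Scramble replicate 1, 5 without Scramble replicate 2, 9 without SiREV1#1 replicate 2 and 33 without SiREV1#1 replicate 1. CDK1 and CDCA8 passed in all 6 of these, and KIF4A and AURKA did not, with adjusted p up to 0.0733. Of the kinesins as a family, 9 of 37 fell and 1 rose (24.3% and 2.7%, beside 6.96% and 5.32% of all genes tested, median -0.35). Among the falls were KIF2C (-0.73), KIF24 (-1.09) and KIF11 (-0.80), and the count of falls was 0 without Scramble replicate 1 or 3 or SiREV1#1 replicate 3 and 13 without SiREV1#1 replicate 1.

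The lists of DNA replication and of recombination also had more falls than rises. Of 44 tested genes of DNA replication and G1/S 13 fell and 1 rose (29.5% and 2.27%, beside 6.96% and 5.32% of all genes tested, median -0.55), and 42 had a value below 0. E2F3, a transcription factor of the G1/S programme, went from 29.1, 37.6 and 41.7 CPM to 15.5, 14.5 and 17.1 CPM (-1.19 ± 0.17), and no library overlapped. UHRF1, which maintains DNA methylation behind the fork, went from 39, 19.7 and 19.1 CPM to 19.9, 9.86 and 10.7 CPM (-0.93 ± 0.13). Its groups overlapped, because replicate 1 was higher on both sides, while each pair fell. GINS2, of the replicative helicase, went from 28.3, 14.6 and 13.4 CPM to 18.9, 7.0 and 7.75 CPM (-0.81 ± 0.16). CCNE2, a cyclin of S phase entry, was low and went from 5.01, 0.929 and 0.879 CPM to 1.11, 0.50 and 0.151 CPM (-1.81 ± 0.36). E2F3 and UHRF1 lost their calls with 2 of the 6 libraries left out, namely without Scramble replicate 1 or 2 (adjusted p up to 0.0584) and without Scramble replicate 2 or 3 (adjusted p up to 0.0569). CCNE2 did so without Scramble replicate 1 or 3 or SiREV1#1 replicate 3 (adjusted p up to 0.132) and GINS2 without Scramble replicate 1, 2 or 3 or SiREV1#1 replicate 2 or 3 (adjusted p up to 0.134). The list as a whole had 1 fall without Scramble replicate 1, 2 or 3, 2 without SiREV1#1 replicate 3, 6 without SiREV1#1 replicate 2 and 19 without SiREV1#1 replicate 1, with medians of -0.63 to -0.41.

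Of 40 tested genes of homologous recombination, the Fanconi pathway and the checkpoint, 14 fell and 0 rose (35% fell, beside 6.96% of all genes tested, median -0.45), and 18 were lower in every SiREV1#1 library, as were 10.4% of all genes tested. NBN, a subunit of the MRN complex that binds DNA ends, went from 82.9, 92.3 and 105 CPM to 46.1, 57 and 55.3 CPM (-0.83 ± 0.12, adjusted p = 0.00665). FANCB, of the Fanconi core complex, went from 5.7, 4.89 and 6.3 CPM to 2.38, 2.25 and 2.97 CPM (-1.15 ± 0.20). In both genes the SiREV1#1 libraries lay below every Scramble library. NBN lost its call without Scramble replicate 1 or 3 or SiREV1#1 replicate 3 (adjusted p up to 0.0959) and FANCB without Scramble replicate 1, 2 or 3 or SiREV1#1 replicate 3 (adjusted p up to 0.0901). The list had 0 falls without Scramble replicate 1 (median -0.44), 1 without Scramble replicate 2 or 3 or SiREV1#1 replicate 3, 7 without SiREV1#1 replicate 2 and 17 without SiREV1#1 replicate 1. The 32 tested genes of the clustered histones had 0 calls either way with edgeR and with DESeq2, and 0 at an unadjusted p under 0.05 (median -0.35, 28 below 0). Their pair medians were 0.11, -0.49 and -0.38. Without SiREV1#1 replicate 1, 4 of them fell and 11 had an unadjusted p under 0.05 in edgeR's test, and with any other of the 6 libraries left out 0 were called. Histone mRNAs mostly lack a poly(A) tail, and poly(A) RNA was sequenced here. Without the replicate block edgeR called 0 genes in the lists of mitosis, replication, recombination, cytokines and liver-type proteins, while 20, 10, 11, 2 and 9 of their genes had an unadjusted p under 0.05. Their medians in that fit were -0.60, -0.56, -0.45, -0.38 and 0.89.

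**Figure D3:**
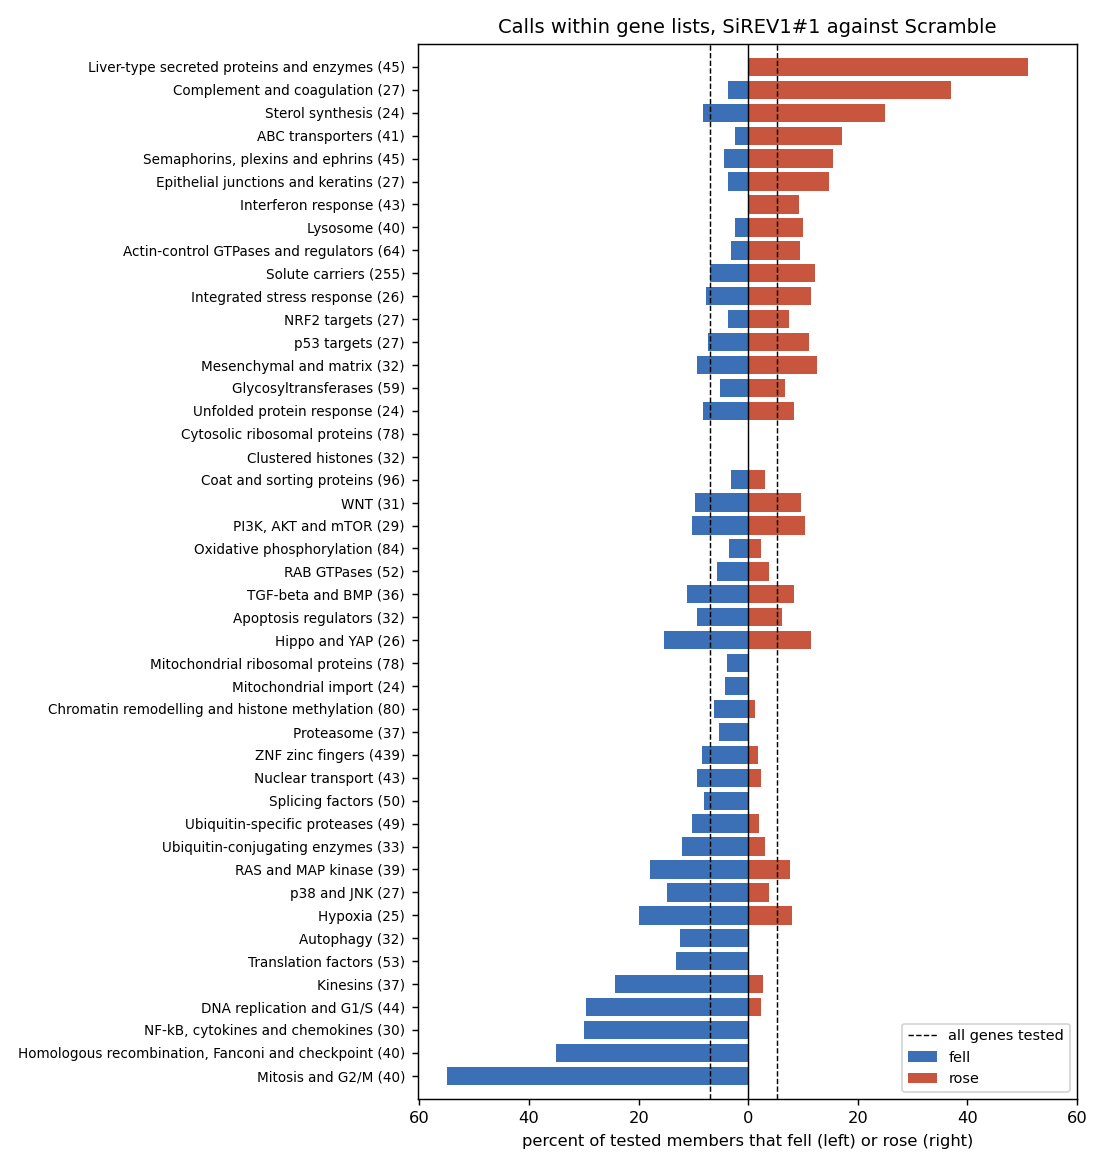
Share of the tested members (in percent, number tested in brackets) that fell, drawn to the left, or rose, drawn to the right, for the 45 gene lists with at least 24 tested members, with dashed lines at the 6.96% and 5.32% of all genes tested. Mitosis stands at one end with 55.0% fallen and liver-type proteins at the other with 51.1% risen, and cytosolic ribosomal proteins and clustered histones have no bar.

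Of 30 tested genes of NF-kB, cytokines and chemokines, which carry inflammatory signals, 9 fell and 0 rose (30% fell, beside 6.96% of all genes tested, median -0.36). CXCL8, the neutrophil chemokine interleukin 8, went from 30.9, 524 and 577 CPM to 11.2, 111 and 104 CPM (-2.09 ± 0.20, adjusted p = 0.0015). IL6, an acute phase cytokine, went from 0.264, 11.1 and 13.1 CPM to 0, 0.901 and 1.11 CPM (-3.57 ± 0.27). Both were far lower in replicate 1 than in replicates 2 and 3 of the same group, so the groups overlapped while each pair fell. CXCL3, another chemokine of neutrophils, went from 10.1, 62.7 and 59.4 CPM to 4.17, 14 and 14.3 CPM (-1.90 ± 0.19) and IL1A, interleukin 1 alpha, from 0.369, 3.37 and 4.1 CPM to 0.0851, 0.40 and 0.453 CPM (-2.99 ± 0.37). IL1A was near the floor in every SiREV1#1 library and passed the filter on low counts through libraries outside that group, so its fall is a description. These 4 kept their calls with each of the 6 libraries left out, and they did not pass without the block. The list had 4 falls without Scramble replicate 2, 5 without Scramble replicate 3 or SiREV1#1 replicate 3, and 14 without SiREV1#1 replicate 1. Of 43 tested interferon response genes, 4 rose and 0 fell (9.3% rose, beside 5.32% of all genes, median 0.13), namely IFITM2 (1.07 ± 0.18), IFITM3 (0.82 ± 0.18), IFI35 (0.59 ± 0.15) and IRF9 (0.54 ± 0.14), and the number of rises was 0 without Scramble replicate 1, 1 without Scramble replicate 2 or 3 or SiREV1#1 replicate 3, 2 without SiREV1#1 replicate 2 and 6 without SiREV1#1 replicate 1.

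**Figure D4:**
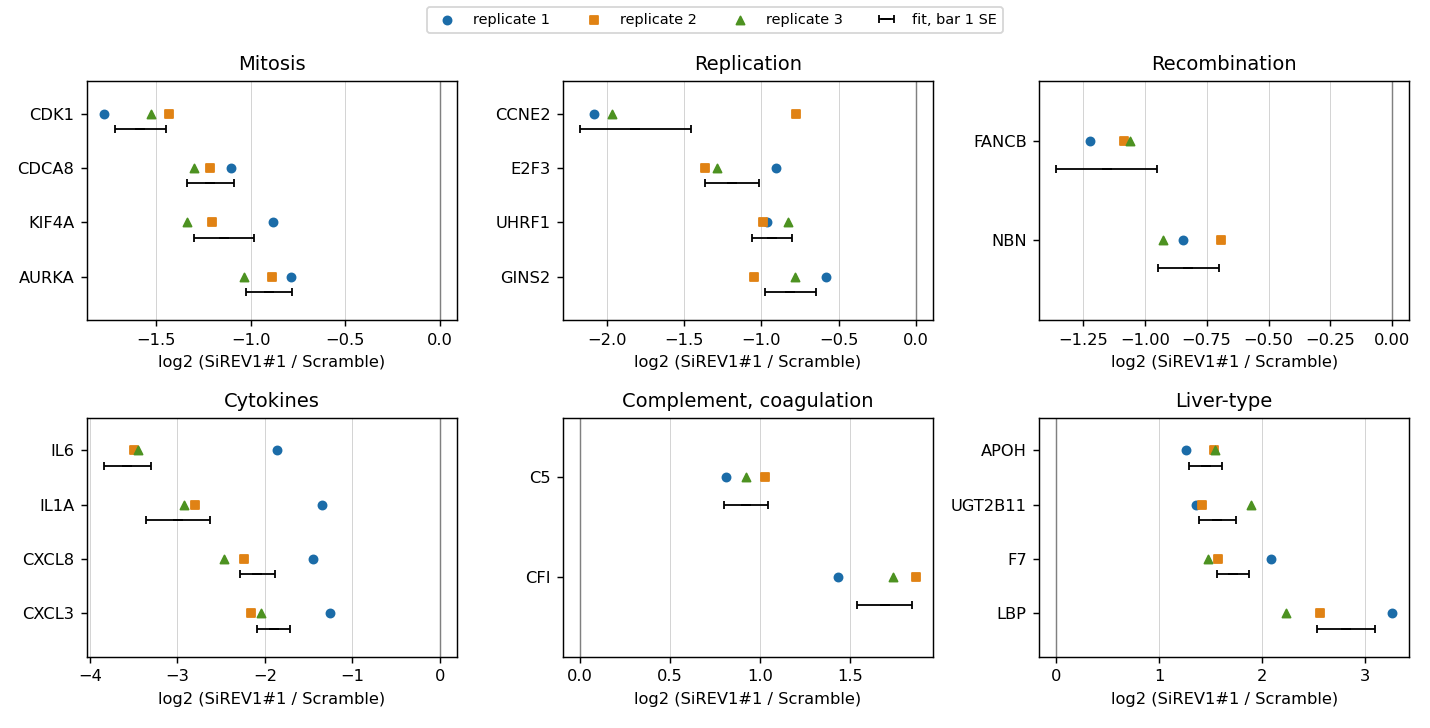
Log2 ratio of SiREV1#1 to Scramble CPM in each same-numbered pair (points) for up to 4 genes of 6 lists, with the fitted log2 fold change and a bar of 1 SE, each panel on its own axis. All points of the mitosis, replication, recombination and cytokine panels lie below 0 and the liver-type points above it, and replicate 1 moved least for the 4 cytokine genes. Genes were chosen by smallest p, so points on one side of 0 follow largely from this choice. Ratios were taken after adding 0.1 CPM to both sides. This shrinks the replicate 1 ratios of IL6 and IL1A, which were near the floor there.

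The list with the largest share of rises held proteins that liver secretes and enzymes typical of liver. It was added after results were seen, and of its 61 genes 45 passed the filter on low counts, of which 23 rose and 0 fell (51.1%, against 5.32% of all genes), with a median of 0.84. APOH, a phospholipid-binding plasma protein, went from 63.3, 24.1 and 25.4 CPM to 151, 69.8 and 74.2 CPM (1.45 ± 0.16, adjusted p = 0.00258), and UGT2B11, a glucuronosyltransferase, went from 10.1, 2.3 and 2.1 CPM to 26, 6.3 and 8.05 CPM (1.57 ± 0.18). Replicate 1 was higher on both sides, so UGT2B11 overlapped between the groups by the Scramble replicate 1, while APOH did not overlap and each pair of both genes rose. Of 27 tested genes of complement and coagulation 10 rose and 1 fell (37% and 3.7%, beside 5.32% and 6.96% of all genes tested, median 0.27). C5, the precursor of the terminal pathway, went from 66.9, 56.4 and 66.7 CPM to 117, 115 and 126 CPM (0.92 ± 0.12). C5 lost its call without Scramble replicate 2 or 3 or SiREV1#1 replicate 3 (adjusted p up to 0.0539). Of 12 tested mucins and secreted epithelial proteins 3 rose (25%, beside 5.32% of all genes tested, median 0.67). These were MUC1, MUC13 (1.10 ± 0.15) and MUC16 (1.43 ± 0.36), whereas MUC5B (0.05 ± 0.25) and the surfactant protein SFTPB (1.48 ± 0.42, adjusted p = 0.0566) did not pass. MUC1 and MUC13 lost their calls without Scramble replicate 1 (adjusted p up to 0.064) and MUC16 without Scramble replicate 1, 2 or 3 or SiREV1#1 replicate 1 or 3 (adjusted p up to 0.18), and the number of rises in this list was 0 without Scramble replicate 1, 5 without SiREV1#1 replicate 2 and 2 with any other library left out. The liver-type list had 8 rises without Scramble replicate 1 or 2, 12 without Scramble replicate 3 or SiREV1#1 replicate 3 and 23 without SiREV1#1 replicate 1. The complement list had 2 without Scramble replicate 2, 3 without Scramble replicate 1 or 3 or SiREV1#1 replicate 3, and 11 without SiREV1#1 replicate 1.

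Of 27 tested targets of p53, 3 rose and 2 fell (median 0.05). With 11.1% and 7.41% their shares stand beside 5.32% and 6.96% of all genes tested, and with 1 library left out the calls numbered 3 (without Scramble replicate 2) to 9 (without SiREV1#1 replicate 1). The list leaves out EI24, named above as induced by p53, and PMAIP1, which fell by log2 values of -2.57 and -2.43 and are not in these counts. MDM2, the ubiquitin ligase of p53, went from 105, 270.4 and 269.6 CPM to 30.1, 100.4 and 102 CPM (-1.53 ± 0.17, adjusted p = 0.00251), and GDF15, a stress cytokine, went from 57.8, 839 and 758 CPM to 32.1, 361 and 325 CPM (-1.10 ± 0.15), with its call lost without Scramble replicate 2 or 3 or SiREV1#1 replicate 3 (adjusted p up to 0.0573). BTG2, which slows the cell cycle, rose instead from 18.4, 137 and 141 CPM to 52.5, 280.4 and 280.0 CPM (1.18 ± 0.15). So did SESN2, a sestrin that holds back mTORC1, from 16.6, 72.8 and 68.9 CPM to 33, 208 and 189 CPM (1.34 ± 0.16), and its relative SESN3 from 31.3, 8.65 and 12 CPM to 72.8, 28.5 and 29.5 CPM (1.40 ± 0.15). The groups overlapped for BTG2, SESN2 and SESN3, since replicate 1 differed on both sides, and each pair rose. Of 21 tested genes of a list of sestrins and growth arrest, added after results were seen, 4 rose and 1 fell (19% and 4.76%, beside 5.32% and 6.96% of all genes tested, median 0.23). The fall was CCNG2, a cyclin known from arrested cells, which went from 13.9, 8.17 and 9.76 CPM to 4.17, 2.95 and 3.27 CPM (-1.60 ± 0.18). In the integrated stress response, 3 of 26 rose and 2 fell (11.5% and 7.69%, beside 5.32% and 6.96% of all genes tested), NUPR1 and SESN2 being among the rises and DDIT3, the transcription factor CHOP, among the falls (-0.76 ± 0.13). DDIT3 lost its call without Scramble replicate 1, 2 or 3 or SiREV1#1 replicate 3 (adjusted p up to 0.103). The calls of this list numbered 2 (without Scramble replicate 1) to 12 (without SiREV1#1 replicate 1) with 1 library left out, and its median, 0.07, ran from -0.12 to 0.32.

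Among targets of NRF2, which is known to be constitutively active in A549 cells, 2 of 27 rose and 1 fell (7.41% and 3.7%, near the 5.32% and 6.96% of all genes tested, median 0.06). The calls numbered 2 (without Scramble replicate 1) to 7 (without SiREV1#1 replicate 1) when 1 library was left out. GPX2, a glutathione peroxidase, went from 481, 33.8 and 35.6 CPM to 1235, 99.6 and 106 CPM (1.5 ± 0.16). NQO1, a quinone reductase, went from 1807, 928 and 929 CPM to 717, 475 and 442 CPM (-1.12 ± 0.15). Both kept their calls with each of the 6 libraries left out. In replicate 1 GPX2 was far above the other replicates on both sides, so its groups overlapped while each pair rose, and the values of NQO1 did not overlap.

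Lysosomal genes gave 4 rises and 1 fall of 40 tested (10% and 2.5%, beside 5.32% and 6.96% of all genes tested, median 0.24, with 9 below 0), and 2 (without Scramble replicate 1) to 16 (without SiREV1#1 replicate 1) calls with 1 library left out. CTSB, cathepsin B, was the fall and went from 291, 269.8 and 258 CPM to 105, 93.5 and 88.1 CPM (-1.52 ± 0.12, adjusted p = 0.00106), with no overlap. TPP1, a tripeptidyl peptidase, went from 98.5, 100.2 and 91.3 CPM to 364, 166 and 167 CPM (1.18 ± 0.23), and CTSA, the protective protein of lysosomal sialidase, went from 126, 83.4 and 79.3 CPM to 243, 153 and 157 CPM (0.93 ± 0.12). TPP1 lost its call without Scramble replicate 1 or 2 (adjusted p up to 0.115) and CTSA without Scramble replicate 3 or SiREV1#1 replicate 3 (adjusted p up to 0.0562). In hypoxia 2 of 25 rose and 5 fell (8% and 20%, beside 5.32% and 6.96% of all genes tested). With 1 library left out 2 (without Scramble replicate 3) to 10 (without SiREV1#1 replicate 1) were called. The falls included CA9, a carbonic anhydrase, from 37.3, 11.1 and 7.96 CPM to 9.11, 3.1 and 2.42 CPM (-1.87 ± 0.15), and P4HA1, a collagen prolyl hydroxylase, from 68.7, 51.9 and 52.2 CPM to 33.9, 27.7 and 27.9 CPM (-0.94 ± 0.12), and the rises AK4, an adenylate kinase (1.01 ± 0.15). AK4 lost its call without Scramble replicate 2 or 3 or SiREV1#1 replicate 3 (adjusted p up to 0.0652).

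In the WNT pathway 3 of 31 rose and 3 fell (9.68% either way, beside 5.32% and 6.96% of all genes tested), and with 1 library left out the calls numbered 3 (without Scramble replicate 1) to 9 (without SiREV1#1 replicate 1). FZD6, a Frizzled receptor, went from 28, 39.1 and 45.2 CPM to 7.15, 11.2 and 11.8 CPM (-1.91 ± 0.17), whereas its relatives FZD5 (1.20 ± 0.16) and FZD8 (1.11 ± 0.15) rose, and LRP6, their co-receptor, fell (-0.94 ± 0.12). FZD6 and FZD8 kept their calls with each library left out, FZD5 lost its call without Scramble replicate 1 (adjusted p up to 0.0521) and LRP6 without Scramble replicate 3 or SiREV1#1 replicate 3 (adjusted p up to 0.0543). ERBB3, a receptor of neuregulins, went from 124, 21.4 and 24.9 CPM to 311, 101 and 101 CPM (1.89 ± 0.24), and its call was lost without Scramble replicate 1 (adjusted p up to 0.0511). Of 255 tested solute carriers 31 rose and 18 fell (median 0.07), with SLC35B1, a nucleotide carrier of the endoplasmic reticulum, going from 60.1, 77.4 and 75.7 CPM to 13.4, 19.7 and 18 CPM (-2.06 ± 0.13) and SLC38A7, a lysosomal amino acid carrier, from 26, 31.2 and 32.9 CPM to 83.7, 78.3 and 77.6 CPM (1.42 ± 0.13). The share of risen solute carriers, 12.2%, stands beside 5.32% of all genes, and the number of rises was 4, 5 and 7 without Scramble replicate 1, 2 and 3, 7 without SiREV1#1 replicate 3, 12 without SiREV1#1 replicate 2 and 47 without SiREV1#1 replicate 1. Housekeeping complexes held few calls with all libraries in the fit. Of 78 cytosolic ribosomal proteins 0 passed with edgeR, 1 with DESeq2 and 3 at an unadjusted p under 0.05 (median 0.07). Of 84 subunits of oxidative phosphorylation 2 rose and 3 fell (2.38% and 3.57%, median 0.14), and of 37 proteasome subunits 2 fell (5.41%, median -0.16). These shares stand beside 5.32% risen and 6.96% fallen of all genes tested. The proteasome median was -0.50 in pair 1 and -0.01 in both other pairs, and with 1 library left out it ran from -0.28 to -0.01 (without SiREV1#1 replicate 1), with 0 to 3 falls. For oxidative phosphorylation 1 (without Scramble replicate 1) to 21 (without SiREV1#1 replicate 1) were called with 1 library left out. Its pair medians were -0.06, 0.18 and 0.25, and 65 of the 84 subunits had a value above 0. Of 78 mitochondrial ribosomal proteins 3 fell and 0 rose (3.85% fell, beside 6.96% of all genes tested, median -0.03), with 1 (without Scramble replicate 2) to 11 (without SiREV1#1 replicate 1) calls. Single subunits fell by more than 2-fold within such complexes, for example MRPL19, of the mitochondrial ribosome, from 75.5, 62.8 and 60.4 CPM to 32.4, 18.9 and 20.6 CPM (-1.5 ± 0.14), and SDHD, of succinate dehydrogenase, from 73.5, 84.2 and 83.5 CPM to 31.2, 44.4 and 44.4 CPM (-1.02 ± 0.14). Within the endoplasmic reticulum membrane complex, MMGT1 fell by 2.86 on the log2 scale and EMC3 by 0.53, while the other 8 tested subunits lay between -0.13 and 0.25 and did not pass. EMC3 lost its call without Scramble replicate 1, 2 or 3 or SiREV1#1 replicate 2 or 3 (adjusted p up to 0.218).

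The SERTA domain family, coregulators that act with E2F, had 2 falls among 5 tested genes (40%, beside 6.96% of all genes tested). SERTAD2 went from 48.9, 141 and 162 CPM to 27.1, 61.3 and 60.2 CPM (-1.16 ± 0.16, adjusted p = 0.0053). Each pair fell, and the groups overlapped because replicate 1 of Scramble was lower than replicates 2 and 3 after SiREV1#1. SERTAD1 fell less (-0.44 ± 0.12, adjusted p = 0.0483). SERTAD3 (0.30 ± 0.13), SERTAD4 (-0.48 ± 0.31) and CDCA4 (-0.31 ± 0.12) did not pass. SERTAD2 lost its call without Scramble replicate 3 or SiREV1#1 replicate 3 (adjusted p up to 0.0531) and SERTAD1 without Scramble replicate 1, 2 or 3 or SiREV1#1 replicate 2 or 3 (adjusted p up to 0.351).

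Genes that fell more often held in their 3′ UTR the word that pairs with bases 2 to 8 of the SiREV1#1 guide. The 7-base word CAGGAAT, shown in capitals above, was searched on the sense strand in the longest 3′ UTR that GENCODE 29 gives for each of 13819 tested genes, and 15.7% of these hold it. It stood in 302 of 980 fallen genes (30.8%), in 88 of 749 risen genes (11.7%) and in 14.7% of the genes that did not pass. Followed by an A, as in REV1, the 8-base word CAGGAATA stood in 11.2% of fallen, 1.47% of risen and 3.42% of other genes. A gene was then put in 1 class by its longest match. Of 8213 genes with none of these words 3.46% fell, of 2335 with only the 6-base word AGGAAT 7.88%, of 1632 with the 7-base word without the A 11.8%, of 1105 with AGGAATA (the 6-base word with the A) 19%, and of 534 with the 8-base word 20.6%. Rises went the other way, from 6.40% of the genes with no word to 2.06% of those with the 8-base word. The median log2 fold change was 0.06 with no word and -0.20 with the 8-base word, and 413 of the 534 genes with the 8-base word did not pass. All 15 of the largest falls hold at least a 6-base word, 8 of them the 7-base word, against 3 and 1 of the 15 largest rises, where the exception with the 8-base word is NUPR1. The longest annotated 3′ UTR, 8694 bases for G3BP1 and 4975 for NUPR1, need not be the one these cells express. Whether the words lie in the expressed mRNA was not tested.

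**Figure D5:**
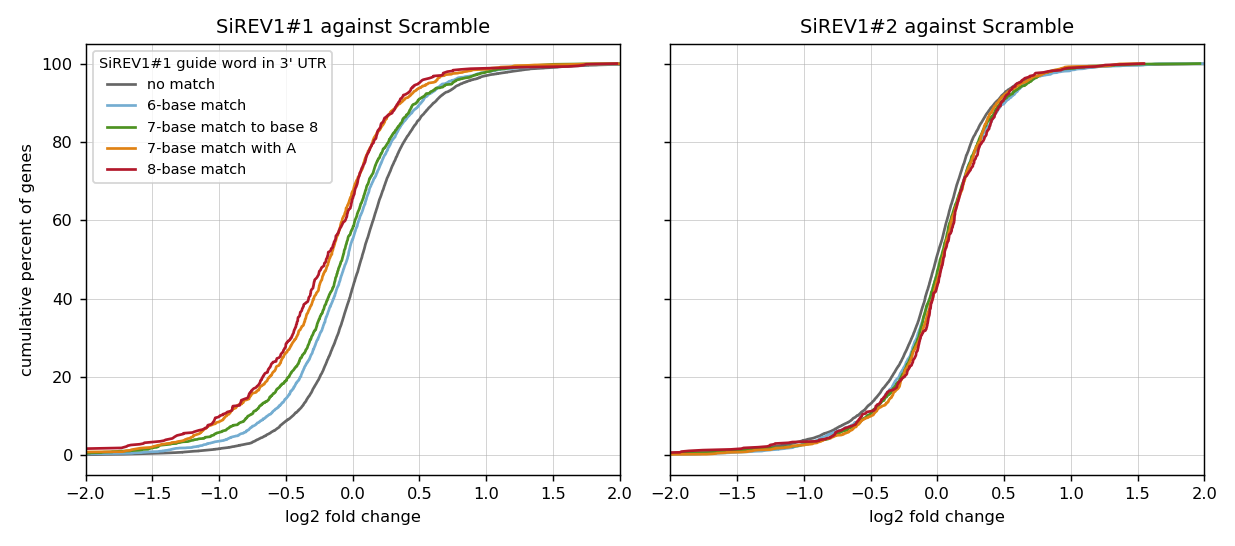
Cumulative percent of genes against log2 fold change for genes classed by the longest match of their 3′ UTR to the SiREV1#1 guide, after SiREV1#1 (left) and after SiREV1#2 (right), both against the same Scramble libraries. On the left the curves move to lower values from no match (3.46% fell) to the 8-base match (20.6% fell), and on the right they lie close together (1.57% and 1.31% fell).

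The word was not alone in following the calls. Fallen genes had longer 3′ UTRs (median 1755 bases against 1386 for risen genes) with less G and C (37.6% against 45.2%), and the part of either in these counts was not tested. In 3 classes of 3′ UTR length with like numbers of genes, 15.6%, 31.2% and 17.9% of genes with the 8-base word fell, short to long, against 3.29%, 4.04% and 2.67% of genes without a word. The word of the SiREV1#2 guide, GGACGAC, stood in 1.12% of fallen and 2.27% of risen genes, and that of the Scramble guide, TGTCACG, in 3.37% and 3.07%. None of the listed human mature miRNAs shared bases 2 to 8 with the guide (0 matches in RefSeq's set). The full 19 bases matched REV1 alone, and 15 further genes held a run of at least 12 of these bases anywhere in the transcript, of which 2 rose and 2 fell (CEACAM7, LZIC, MAD2L1 and PER2, named after their values were seen).

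The same genes were read against SiREV1#2, which lowered REV1 to 14.1 and 13.6 CPM in its libraries with counts of their own, the third count column being a copy of the second. Against Scramble, SiREV1#2 gave 70 rises (0.493%) and 201 falls (1.41%), and the comparisons share their Scramble libraries. In the direct contrast, SiREV1#1 minus SiREV1#2, 2503 genes differed (17.6%), 1243 higher after SiREV1#1 (8.75%) and 1260 lower (8.87%), and among them were 412 of the 756 genes that rose after SiREV1#1 and 693 of the 988 that fell. The difference of REV1 between the siRNAs did not pass (log2 value 0.00 ± 0.15, adjusted p = 0.995). All 15 of the largest falls differed and 0 of them passed after SiREV1#2, and of the largest rises 13 differed, the exceptions being CIDEB and SLC5A9. The called genes and the largest changes were chosen by their SiREV1#1 values, which also enter the direct contrast. High shares of differing genes among them therefore follow in part from the choice. With 2 libraries of SiREV1#2, a change of the same size was also less likely to pass after it. In the mitosis list 10 of 40 genes differed, in DNA replication 6 of 44 (13.6%, below the 17.6% of all genes), in recombination 11 of 40, among cytokines 19 of 30, in the liver-type list 20 of 45, and in translesion synthesis 4 of 19 (SPRTN, POLD3, POLH and RPA2). The medians after SiREV1#2 against Scramble were -0.28 for mitosis, -0.41 for DNA replication and -0.16 for recombination. They were 0.37 for cytokines, which fell after SiREV1#1, 0.06 for the liver-type list and 0.09 for translesion synthesis. Without SiREV1#2 replicate 2 the count of genes in the direct contrast was 540, and without SiREV1#1 replicate 1 it was 4021.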

How the data were processed

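Total RNA of A549 cells was enriched for poly(A) RNA and sequenced on the BGISEQ-500 platform by the authors, who deposited a table of gene symbols, expected counts and FPKM (fragments scaled to transcript length and library size) for each of 9 samples. The submitters' processing notes name hg38 and StringTie 1.3.3b, and the aligner, the annotation and the strand setting are not given in the sources used here. The deposited expected counts were rounded to whole numbers. The count column of SiREV1#2 replicate 3 holds the values of replicate 2, so both were counted as 1 sample. The tables hold 0 columns of samples outside the series, and 25 symbols written as dates were restored through their gene identifiers.

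Counts of 8 libraries in 3 groups were fitted with edgeR 4.0.16 (quasi-likelihood test, TMM scaling, filterByExpr, terms for group and replicate number), with Benjamini-Hochberg adjustment over 14205 genes and a threshold of 0.05. SE was taken from the fold change and the F statistic, and CPM used scaled library sizes. Log2 ratios of pairs were taken after adding 0.1 CPM to both sides. Library totals of 13059082 to 20035170 counts set the precision of single values. Same-numbered libraries deviated together from their group means (correlations of 0.827, 0.753 and 0.778 between Scramble and SiREV1#1), so the numbers were treated as pairs, although no label says what a number shares. Deviations from a mean of 3 sum to 0 and replicate 1 stood apart, and the difference of replicates 2 and 3 correlated by only 0.122 between the groups, so these values show little of a tie between numbers 2 and 3. The methods say only that experiments were repeated independently, so p-values measure the spread between these samples. Alternatives were DESeq2 1.42.0, limma 3.58.1 on log2(FPKM + 1) and log2(FPKM + 0.1) of the deposited FPKM, other scaling, filters and blocks, and each library left out. The scripts were tested on simulated data.

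The named genes were REV1 and the tested members of translesion synthesis, the 15 largest rises and falls (adjusted p under 0.05, mean CPM of at least 5, one direction in 3 pairs, no overlap), and up to 4 genes with the smallest p of each of 66 lists, or any member of lists of at most 12 tested genes. A few genes that this rule names are not reported here, but count in the totals. Members and lists were chosen with earlier results of these data known. The name patterns of the solute carrier, kinesin, integrin, tubulin, translation factor, nuclear transport, zinc finger and vacuolar ATPase lists were tightened, and 4 lists (liver-type, ABC transporters, semaphorins with plexins and ephrins, sestrins) were added, after results were seen. Sequences came from GENCODE 29 on GRCh38, the same assembly as hg38, and the site in REV1 was found from the word that pairs with the guide of the published siRNA. Mature miRNAs came from RefSeq.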

Additional observations from a re-analysis of the deposited data

Results flagged for a closer look

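The change after SiREV1#1 differed from that after SiREV1#2 in the direct contrast for 32 of the 49 genes named for their size or their place in translesion synthesis (edgeR's quasi-likelihood test, adjusted p under 0.05, against 17.6% of all genes tested). These genes were chosen from SiREV1#1's own changes, so the count is a description. All values are log2 differences, SiREV1#1 minus SiREV1#2.

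In translesion synthesis SPRTN was lower after SiREV1#1 by a difference of -1.50 (adjusted p = 0.0017), POLD3 by -1.16 and RPA2, a subunit of the single-strand binding protein, by -0.585. POLH was 0.51 higher, with values of -0.15 after SiREV1#1 and -0.66 after SiREV1#2 against Scramble, neither past the threshold.

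For 14 of the largest falls the difference was -4.58 for TIGIT, -3.11 for MMGT1, -2.80 for ZNF770, -2.80 for ACVR1, -2.62 for EI24, -2.51 for TSFM and -2.50 for VBP1. It was -2.37 for MAPKAPK2, -2.36 for HNRNPA3, -2.35 for G3BP1, -2.34 for METTL9, -2.32 for SLC25A30, -2.28 for RASSF3 and -2.23 for PMAIP1. The adjusted p ran from 0.000472 to 0.0102.

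Among the largest rises SMPDL3B differed most, by 4.84, because it rose by 2.13 after SiREV1#1 and fell by 2.71 after SiREV1#2. PRG4 differed by 2.90, LBP by 2.89, ADH4 by 2.46, FST by 2.44, PLXNC1 by 1.97 and KCNJ16 by 1.76. The differences of CFI (1.69), F7 (1.58), MUC1 (1.56), NUPR1 (1.33), DOC2A (1.26) and PLSCR4 (0.67) were smaller, and PLSCR4 rose after both siRNAs. Of the 234 genes named from the lists, 146 differed in the same contrast.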

How the results depend on the processing

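REV1 stayed below the control and past the threshold in every alternative. Every one of the 1744 called genes that had a value in an alternative kept its sign there, and sign changes of genes that did not pass were not counted as reversals. The number of calls moved far more. Without the replicate block 42 genes passed (5 rose, 37 fell), with a block that set replicate 1 against the others 2731, with replicates 2 and 3 alone 6597, and with all 9 count columns 2683, in which the copied column counts as a sample. At an adjusted p of 0.01 502 passed and above a 2-fold change 597. With 1 library left out the count ran from 323 (without Scramble replicate 2, 99 rose and 224 fell) to 3432 (without SiREV1#1 replicate 1, the library of lowest depth). DESeq2 gave 2258. On log2(FPKM + 1) 730 rose and 1471 fell, and on log2(FPKM + 0.1) 745 and 1540, where the median of all genes moved to -0.05 and -0.07.

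The direct contrast of the siRNAs gave 96 genes without the block, 3848 with replicate 1 against the others, 4373 and 4419 on FPKM, 7712 with replicates 2 and 3 alone, 4972 with all columns, 779 at an adjusted p of 0.01, 1192 above 2-fold, and 540 to 4021 with 1 library left out. The cause was not tested.

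Of 192 called genes named from the lists, 42 kept the call with each of the 6 libraries left out, as did 25 of 35 other named genes. Without the block 11 of the 15 largest falls, 2 of the 15 largest rises and 4 of the 234 genes named from the lists passed. Medians of 22 lists moved by more than the spread of the pairs, each on log2(FPKM + 1). Depth limits the low genes: of the 3552 genes of lowest level (up to 5.43 CPM) 109 rose and 107 fell, against 201 and 346 of the next 3551.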

Other observations

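Several groups not described above held single genes that moved far. ZNF146, a zinc finger protein, went from 184, 264 and 278 CPM to 60.3, 81.8 and 87.4 CPM (-1.66 ± 0.14), although 37 of 439 tested ZNF genes fell (8.43%, beside 6.96% of all genes tested) and 8 rose. The ZNF genes had a median of -0.15 with 295 below 0, and 4 to 96 of them fell with 1 library left out, the most without SiREV1#1 replicate 1. UBE2W, a ubiquitin-conjugating enzyme that acts on protein N termini, went from 23.3, 59 and 66.4 CPM to 9.28, 21.9 and 23.4 CPM (-1.43 ± 0.14), among 4 falls and 1 rise of 33 (12.1% and 3.03%, beside 6.96% and 5.32% of all genes tested). EDEM1, which sends misfolded glycoproteins to degradation, went from 62.9, 68.5 and 72.4 CPM to 21.2, 30.1 and 29.1 CPM (-1.36 ± 0.14), while 2 of 24 genes of the unfolded protein response rose and 2 fell (8.33% either way, near the shares of all genes tested). ATG3, the enzyme that joins LC3 to lipid, went from 67.6, 80.1 and 82.1 CPM to 34.1, 37.5 and 37.2 CPM (-1.08 ± 0.13), and autophagy genes gave 4 falls and 0 rises of 32 (12.5% fell, beside 6.96% of all genes tested). The SiREV1#1 libraries lay below the Scramble libraries for EDEM1, ATG3 and ZNF146, and UBE2W overlapped through Scramble replicate 1. RARS, the arginyl-tRNA synthetase, went from 138, 136 and 138 CPM to 73.2, 67.4 and 68.8 CPM (-0.98 ± 0.12), with close replicates. These 5 genes kept their calls with each of the 6 libraries left out. Of 53 translation factors 7 fell and 0 rose (13.2% fell, beside 6.96% of all genes tested, median -0.08), EIF4E, which binds the mRNA cap, by a log2 value of -0.90 ± 0.14 and EIF3E by -1.43 ± 0.23, and the count was 0 without Scramble replicate 2 or 3 or SiREV1#1 replicate 3.

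Of 24 genes of sterol synthesis 6 rose and 2 fell (25% and 8.33%, beside 5.32% and 6.96% of all genes tested, median 0.16), with MSMO1, a sterol oxidase, at 1.02 ± 0.17, and 0 rose without Scramble replicate 1, 2 or 3 or SiREV1#1 replicate 3. Of 41 ABC transporters 7 rose and 1 fell (median 0.38), and of 45 semaphorins, plexins and ephrins 7 rose and 2 fell (median 0.17). These rises were 17.1% and 15.6%, beside 5.32% of all genes tested. Both lists were added after results were seen, and with 1 library left out the rises ran from 1 (without Scramble replicate 2) to 14 and 12 (without SiREV1#1 replicate 1). The median of the ABC transporters was -0.01 in pair 1, 0.31 in pair 2 and 0.28 in pair 3. ABCC5, an exporter of cyclic nucleotides, had a log2 fold change of 1.24 ± 0.18 and lost its call without Scramble replicate 1 (adjusted p up to 0.0661), whereas ABCB10, a mitochondrial member, fell (-1.13 ± 0.18). Epithelial junction genes gave 4 rises and 1 fall of 27 (14.8% and 3.7%, beside 5.32% and 6.96% of all genes tested), led by DSC2, a desmosomal cadherin, which went from 13.1, 14.1 and 17.7 CPM to 30.6, 43.1 and 41.5 CPM (1.36 ± 0.15) with no overlap. RHOB, a small GTPase of endosomes, went from 63.9, 298 and 300.0 CPM to 137, 686 and 651 CPM (1.14 ± 0.12), and each pair rose. Of 64 small GTPases that control actin and their regulators 6 rose and 2 fell (9.4% and 3.1%, beside 5.32% and 6.96% of all genes tested). With 1 library left out the calls of that list numbered 1 to 14, the most without SiREV1#1 replicate 1. In the circadian clock CRY2 (1.02 ± 0.13) and PER2 (0.93 ± 0.18) rose and 4 of 16 genes fell (12.5% and 25%, beside 5.32% and 6.96% of all genes tested), CLOCK (-0.91 ± 0.14) and NR1D2 (-0.77 ± 0.15) among them. CRY2 lost its call without Scramble replicate 3 or SiREV1#1 replicate 3 (adjusted p up to 0.0531), PER2 without Scramble replicate 1, 2 or 3 or SiREV1#1 replicate 3 (adjusted p up to 0.131), CLOCK without Scramble replicate 1, 2 or 3 or SiREV1#1 replicate 3 (adjusted p up to 0.0862) and NR1D2 without Scramble replicate 1, 2 or 3 or SiREV1#1 replicate 2 or 3 (adjusted p up to 0.125). In the RNA interference machinery, which siRNAs use, AGO2 fell (-0.61 ± 0.14) and TNRC6A rose (0.69 ± 0.13) among 13 tested genes (7.69% either way, beside 5.32% and 6.96% of all genes tested). AGO2 lost its call without Scramble replicate 1, 2 or 3 or SiREV1#1 replicate 2 or 3 (adjusted p up to 0.247) and TNRC6A without Scramble replicate 1, 2 or 3 or SiREV1#1 replicate 3 (adjusted p up to 0.104). Of 22 integrins 2 rose (9.09%, median 0.07) and of 16 tubulins 1 rose (6.25%, median 0.23), beside 5.32% of all genes tested. Of 43 genes of nuclear transport 1 rose and 4 fell (2.33% and 9.3%, median -0.06). Of 23 subunits and partners of the vacuolar ATPase 1 rose and 1 fell (4.35% either way, median -0.04), while 6.96% of all genes tested fell. With 1 library left out the calls ran from 0 to 2 for integrins and for tubulins, 0 to 14 for nuclear transport and 0 to 6 for the vacuolar ATPase.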
